A study of Mus musculus with 33 samples.

Results

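Basophils, mast cells and eosinophils are rare granular cells that defend against parasites and drive allergic inflammation. Basophils and mast cells store histamine and proteases in their granules and carry the IgE receptor, while eosinophils store cationic proteins and a peroxidase. Their precursors leave the myeloid branch of hematopoiesis around the granulocyte–monocyte progenitor (GMP) stage. Genes that mark these lineages were followed here, chosen by their symbols, 10 of the 55376 symbols counted in each library. Mcpt8, a granule protease of basophils, Prss34, another basophil protease, and Cd200r3, an activating surface receptor, are basophil genes. Prg2 and Prg3, which encode the major basic proteins, and Epx, eosinophil peroxidase, are eosinophil granule genes. Cpa3, the granule carboxypeptidase, Ms4a2 and Fcer1a, the beta and alpha chains of the high affinity IgE receptor, and Hdc, the enzyme that makes histamine, are shared by basophils and mast cells.

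The cells came from old C57BL/6 male mice (24 to 29 months). O-WT mice were untreated, O-NR mice had nicotinamide riboside (NR), a precursor of NAD+, in their drinking water for 4 to 6 weeks, and O-NR-RC mice were kept for 2 months after NR was withdrawn. Total RNA was sequenced from sorted hematopoietic stem cells (HSCs), common lymphoid progenitors (CLPs) and GMPs in 24 libraries of cohort 2 (per cell type, 4 O-WT and 4 O-NR), and from HSCs alone in 9 libraries of cohort 1 (2 O-WT, 4 O-NR, 3 O-NR-RC). Each library was taken as 1 mouse, and the 3 cell types with the same treatment and replicate number as the same mouse, since their deposited names share 1 animal-like number. The p-values measure the spread between these libraries. One label field calls the GMPs common myeloid progenitors, while their titles call them GMPs. HSCs and CLPs were gated as lineage negative, and CLPs also by IL-7R alpha and Flk2. Counted reads ranged from 8434214 to 14479453 in HSCs, 4792380 to 12058957 in CLPs and 11755798 to 18213674 in GMPs of cohort 2, and from 8897256 to 23816042 in cohort 1. The marker lists followed the labels: the sum of 5 CLP markers was 1227 to 3893 CPM in CLPs and at most 43.5 CPM in GMPs, and the sum of 5 GMP markers was at least 17729 CPM in GMPs and at most 505.2 CPM in CLPs. CLP O-WT 3 had the lowest CLP marker sum (1227 CPM) and the largest scaling factor (2.04) of the CLP libraries.

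The 10 genes were measured in CPM, a gene's counts relative to the total of its library, scaled between the libraries of a cohort by edgeR's TMM method. As a level for counts that do not come from blood transcripts, the mean CPM per kilobase of exon over 1431 olfactory and vomeronasal receptor genes was used, and it was 0.27 to 0.52 in HSCs, 0.34 to 0.66 in CLPs, 0.23 to 0.39 in GMPs and 1.23 to 1.94 in the HSCs of cohort 1. In these bulk libraries, fewer cells of a type and less RNA per cell cannot be told apart.

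In GMPs, the eosinophil granule genes were the most abundant of the 10 per kilobase of exon. Prg2 (chr2:84980461-84983632, plus strand, mm10) stood at 2569 ± 1531 CPM per kilobase (SD, n = 8), Epx (chr11:87864000-87875536, minus strand) at 384.3 ± 233 and Prg3 (chr2:84988215-84993886, plus strand, next to Prg2) at 125.2 ± 70.6. Cpa3 (chr3:20215620-20242181, minus strand) followed at 112 ± 52.5, Prss34 (chr17:25298394-25300165, plus strand) at 82.8 ± 51.1 and Mcpt8 (chr14:56082166-56085273, minus strand) at 80.9 ± 44.2, and these 3 and Prg3 lay within 1 SD of each other. That SD is between libraries, and compared library by library Cpa3 was above Mcpt8 in each of the 8. No other pair among them kept 1 order throughout. Ms4a2 (chr19:11615523-11623719, minus strand) at 33.8 ± 19.6 and Hdc (chr2:126593667-126619299, minus strand) at 32.8 ± 8.63 changed order between libraries, and Fcer1a (chr1:173221284-173227214, minus strand) stood at 18.8 ± 9.43. Cd200r3 (chr16:44943678-44981380, plus strand) was far below the rest at 1.31 ± 0.338 CPM per kilobase, 4.13 times the mean of the receptor genes, where Fcer1a stood at 59.3 times and Prg2 at 8105 times. None of the 10 shares an exon with another gene, and the share of their transcripts' 50-base words found in other genes was 2.79% for Cd200r3, 2.1% for Ms4a2, 0.14% for Hdc and 0 for the others.

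All 10 genes were higher in GMPs than in HSCs, where 23.6% of the 20470 genes tested were called higher at an adjusted p below 0.05 (quasi-likelihood test in edgeR, adjusted by Benjamini-Hochberg). The median log2 fold change of the 10 was 5.74, against a median of -0.35 over all genes tested. To be tested, a gene had to be above 3 CPM in at least 4 of the 24 libraries. Mcpt8, Prss34 and Fcer1a met this only through their GMP libraries, being at most 2.58, 1.98 and 1.54 CPM in HSCs. The filter thus favoured their calls as higher in GMPs, here and against CLPs. Prg2 had the largest difference, at 9.05 (SE 0.62, adjusted p = 1.8e-15), from 1.78 to 5.85 CPM in HSCs to 792.1 to 4384 CPM in GMPs. Epx differed by 7.62 (SE 0.52, adjusted p = 1.4e-15), Cpa3 by 6.47 (SE 0.32), Mcpt8 by 6.27 (SE 0.33), Prss34 by 6.13 (SE 0.37), Prg3 and Ms4a2 by 5.36 each (SE 0.28 and 0.30), Hdc by 5.2 (SE 0.18) and Fcer1a by 4.45 (SE 0.35). The lowest GMP library exceeded the highest HSC library for each of these 9 genes. Cd200r3 was the exception among the 10: its difference of 0.66 (SE 0.24, adjusted p = 0.0199) was small, its range of 5.02 to 11.3 CPM in GMPs touched that of 2.93 to 5.07 CPM in HSCs, and it did not pass with upper quartile scaling, with counts thinned to the smallest library, with the O-WT libraries alone or without O-WT replicate 1 (adjusted p from 0.0523 to 0.0949 in edgeR). Against CLPs, 9 of the 10 were higher in GMPs, where 29.8% of genes were called higher, by log2 fold changes of 4.04 (Prg3) to 5.66 (Prss34). Cd200r3 differed by -0.18 (SE 0.24, adjusted p = 0.487).

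**Figure D1:**
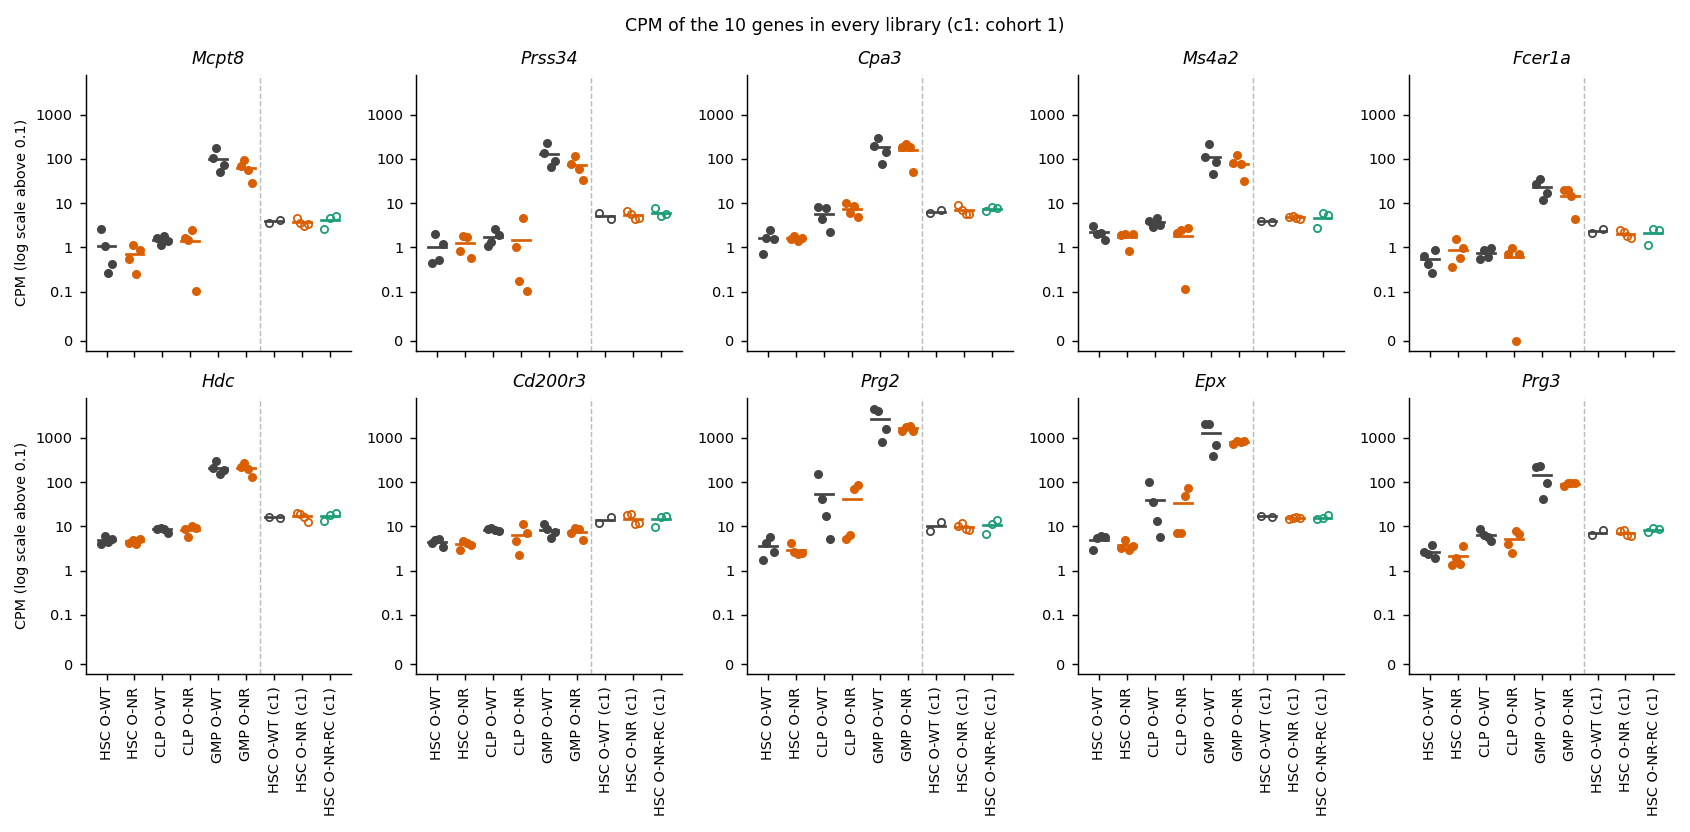
CPM of each of the 10 genes (log scale above 0.1, linear below) in every library by cell type and treatment; filled points are cohort 2, open points cohort 1 (c1, HSCs only, scaled separately), and bars are group means. In 9 of the 10 panels both GMP groups lie above the HSC and CLP groups, Cd200r3 being the exception, and the CLP points of Prg2 and Epx are spread widely.

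In HSCs of cohort 2 the 10 genes were low. Per kilobase they stood at 1.80 (Ms4a2) to 10.3 (Prg2) times the receptor mean, with Prg3 at 6.59, Epx at 4.16 and Cpa3 at 2.75 times. Prg2 exceeded at least 99.8% of the receptor genes in each HSC library and Prg3 at least 99.1%. Between 3 and 83 reads stood behind each value. Hdc, at 3.92 to 6.18 CPM, Epx, at 2.85 to 6.02 CPM, and Cd200r3 were above 3 CPM in at least 4 of the 8 HSC libraries by this scaling, and the other 7 were not. In HSCs of cohort 1 every gene read higher, for example Prg2 at 6.86 to 13.9 CPM and Mcpt8 at 2.60 to 5.06 CPM, in libraries whose receptor genes summed to 6204 to 9912 CPM against 1554 to 2907 CPM in the HSCs of cohort 2. Relative to the receptor genes, the range in cohort 1 was 1.01 (Ms4a2) to 7.62 (Prg2) times. The cohorts were scaled separately, no test was made between them, and the part of these counts in the levels was not tested.

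The eosinophil granule transcripts in CLPs varied widely between mice. Prg2 was at 153, 42.3, 17.2 and 5.19 CPM in O-WT 1 to 4 and at 5.15, 6.22, 69.6 and 87.1 CPM in O-NR 1 to 4. The highest CLP library was 29.7 times the lowest, and both treatments held high and low libraries. Epx had the same 5 libraries highest, in the same order, with 100.5, 35.4, 13.1 and 5.59 CPM in O-WT and 7.11, 6.91, 47.6 and 71.8 CPM in O-NR. Prg3 moved less, from 2.51 to 8.57 CPM. The spread of log2 CPM over the 8 CLP libraries (SD 1.96 for Prg2 and 1.64 for Epx) was larger than that of 99.98% and 99.96% of the 18191 genes above 3 CPM in at least 4 of them, whose median SD was 0.43. Prg2 and Epx had r = 0.99 in CLPs (rho = 0.93, two-sided exact permutation tests over 8 libraries, adjusted p = 0.0015 for r and 0.0228 for rho over 15 pairs), and r = 0.99 without the 2 libraries farthest from the median of Prg2. Prg3 had r = 0.86 with Prg2 and 0.83 with Epx (exact permutation tests, adjusted p = 0.0153 and 0.0238). It also had r = 0.92 with Cd200r3 and 0.86 with Hdc (exact permutation tests, adjusted p = 0.0153 and 0.0304). By rho these last 2 pairs did not pass (exact permutation tests, adjusted p = 0.0982 each). Without O-NR 1 and 2, the libraries farthest from the median of Cd200r3 and of Prg3, their r was 0.52 and 0.79. Cd200r3 and Hdc were lowest in O-NR 2 and highest in O-NR 3, where the receptor mean was 0.34 and 0.66 CPM per kilobase. Its part in these 2 correlations was not tested. Of the 15 pairs, 5 passed for r and 3 for rho. The Prg2 to Epx ratio of counts was 0.72 to 1.52 in CLPs and 1.65 to 2.41 in GMPs.

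In CLPs 6 of the 10 genes were higher than in HSCs, where 18.6% of genes were called higher. Prg2 differed by 3.86 on the log2 scale (SE 0.53, adjusted p = 9.3e-08 by edgeR), Epx by 3.05 (SE 0.45), Cpa3 by 2.04 (SE 0.34, adjusted p = 3.5e-06), Prg3 by 1.32 (SE 0.30), and Hdc and Cd200r3 by 0.85 each (SE 0.18 and 0.25). Hdc and Cd200r3 were near the receptor genes in both cell types. Per kilobase they stood at 2.54 and 2.37 times the receptor mean in CLPs, and at 1.95 and 1.81 times in HSCs. The receptor mean itself had a median of 0.495 CPM per kilobase in CLPs and 0.368 in HSCs. Its part in these differences was not tested. The other 4 did not pass by edgeR's quasi-likelihood test: Mcpt8 differed by 0.80 (SE 0.43, adjusted p = 0.127), Ms4a2 by 0.51 (SE 0.35, adjusted p = 0.225), Prss34 by 0.47 (SE 0.48, adjusted p = 0.432) and Fcer1a by 0.00 (SE 0.37, adjusted p = 0.993). Of these, Mcpt8, Prss34 and Fcer1a passed the filter only through their GMP libraries. In CLPs the 4 were at most 4.70 CPM in any library, and Fcer1a had 0 reads in O-NR 3. That allows up to 0.426 CPM by 3 reads, taken on the library total without TMM scaling (counting error only). The 4 libraries with the highest Prg2 (O-WT 1 and 2, O-NR 3 and 4) held between 1 and 21 reads of Mcpt8.

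Other genes of eosinophils were present in the same CLP libraries. The summed level of 8 mature eosinophil genes (Siglecf, Ccr3, Ear1, Ear2, Ear6, Ear10, Alox15 and Il5ra) was 71.9, 29.3, 29.4 and 18.9 CPM in O-WT 1 to 4 and 20.1, 14.4, 47.8 and 78.4 CPM in O-NR 1 to 4. The 3 libraries highest in Prg2 were the 3 highest here. Of 7 list genes tested, 4 were higher in CLPs than in HSCs and none was lower, with 18.6% of all genes higher and 28.5% lower. The 4 were Ear6 (log2 fold change 3.69), Ear2 (3.07), Ear1 (2.79) and Siglecf (1.51). The Ear genes are ribonucleases of eosinophil granules with near-identical copies, so the split of reads between them is uncertain. Il5ra, the receptor chain for interleukin 5, differed by 0.39 (adjusted p = 0.20). Other sums did not have the order of Prg2. That of the 5 GMP markers was 263.7, 222.1, 273.9 and 401.8 CPM in O-WT and 505.2, 428.2, 388.5 and 320.7 CPM in O-NR. That of 8 neutrophil genes was 148.6, 47.0, 86.6 and 184.9 CPM in O-WT and 141.8, 111.1, 16.9 and 27.8 CPM in O-NR. The part of other cells in the CLP values was not tested.

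**Figure D2:**
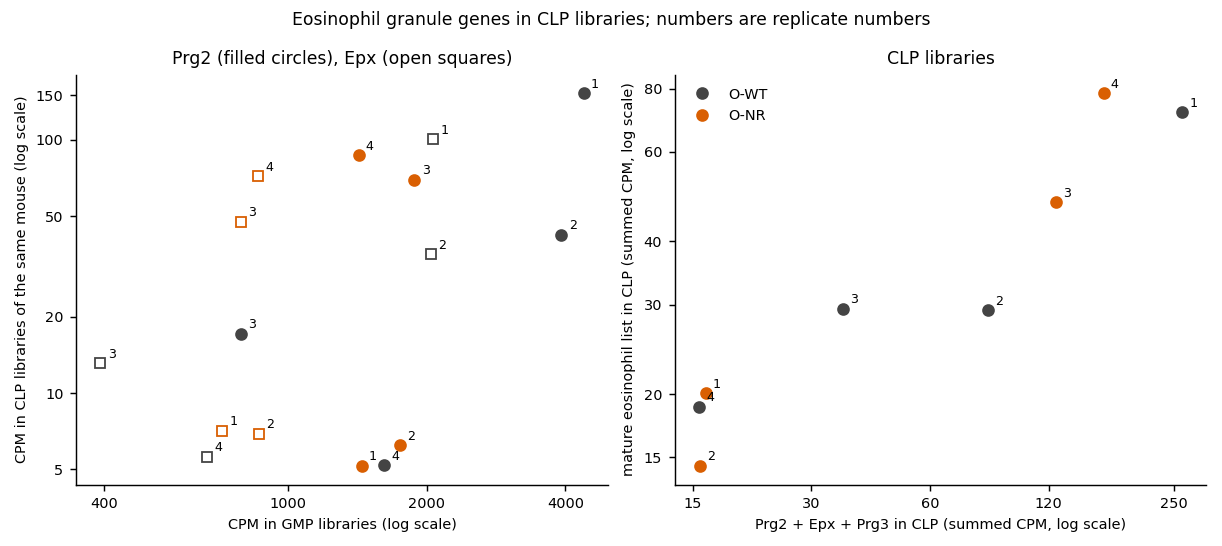
Left, CPM of Prg2 (filled circles) and Epx (open squares) in the CLP library of each mouse against the GMP library of the same mouse; right, summed CPM of 8 mature eosinophil genes against that of Prg2, Epx and Prg3 in the 8 CLP libraries; all axes are log scales, numbers are replicate numbers and colour is treatment. O-WT 1 is highest in both cell types for Prg2, O-NR 4 is high in CLPs and not in GMPs, and on the right O-NR 1, O-NR 2 and O-WT 4 lie lowest.

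The matching of cell types by mouse rests on the shared number alone. Over all genes, the mean r of deviations from the group means was 0.09 in matched and -0.03 in unmatched libraries for HSC with CLP. It was -0.15 and 0.05 for HSC with GMP, and -0.02 and 0.007 for CLP with GMP. Taking deviations from the group means ties the unmatched mean to the matched one, so these values cannot settle the matching. Whether a mouse with high levels in one cell type was high in another was asked for the genes above 3 CPM in at least 4 libraries of both, in 12 correlations over 8 mice. None passed (two-sided exact permutation tests, smallest adjusted p = 0.897 for r and 0.513 for rho). Between GMPs and CLPs, Epx had r = 0.58 (rho = 0.55, exact permutation p = 0.15 and 0.171) and Prg2 r = 0.50 (rho = 0.40, exact permutation p = 0.224 and 0.327). Without the 2 mice farthest from the median in GMPs these were 0.25 and 0.01. Epx in CLPs against HSCs had r = -0.58 (exact permutation p = 0.129, adjusted p = 0.897).

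Among the 8 GMP libraries, the 10 genes varied more than most. The SD of log2 CPM was 0.78 (Mcpt8) to 0.90 (Fcer1a) for 8 of the 10, larger than for 99.8% of the 15095 genes above 3 CPM in at least 4 of the libraries, whose median was 0.26. It was 0.39 for Hdc and 0.38 for Cd200r3. Mcpt8 was at 102.4, 172.7, 49.7 and 74.0 CPM in O-WT 1 to 4 and at 67.9, 94.2, 57.0 and 28.1 CPM in O-NR 1 to 4. Prg2 was at 4384, 3924, 792.1 and 1615 CPM in O-WT and at 1447, 1751, 1883 and 1425 CPM in O-NR. O-WT 2 was high and O-WT 3 low in both genes, while O-NR 4 was the lowest library for Mcpt8 and, for Prg2, stood at 1425 CPM beside 1447 CPM in O-NR 1.

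Cpa3 was at 198.9, 301.2, 77.5 and 143.2 CPM in O-WT and at 182.8, 217.5, 189.3 and 50.8 CPM in O-NR, and Ms4a2 at 109.2, 210.5, 46.2 and 84.2 CPM in O-WT and at 82.1, 121.9, 74.4 and 32.3 CPM in O-NR. Both had their highest value in O-WT 2 and their lowest in O-NR 4, as had Prss34, Fcer1a and Hdc. Cd200r3 was highest in O-WT 1 (11.3 CPM) and lowest in O-NR 4 (5.02 CPM). Epx was at 2065, 2044, 392.5 and 669 CPM in O-WT and at 721.1, 866.3, 792.1 and 863.5 CPM in O-NR. Its lowest value, like those of Prg2 and Prg3, was in O-WT 3, and in O-NR 4 it was the second highest of the O-NR group. The Prg2 to Mcpt8 ratio of counts was 15.9 to 42.8 in the O-WT libraries and 18.6 to 50.8 in the O-NR libraries, with 50.8 in O-NR 4. In the same library the sum of 6 monocyte and dendritic cell genes was 1562 CPM, against 527.9 to 1142 CPM in the other GMP libraries, and its part in the levels was not tested.

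**Figure D3:**
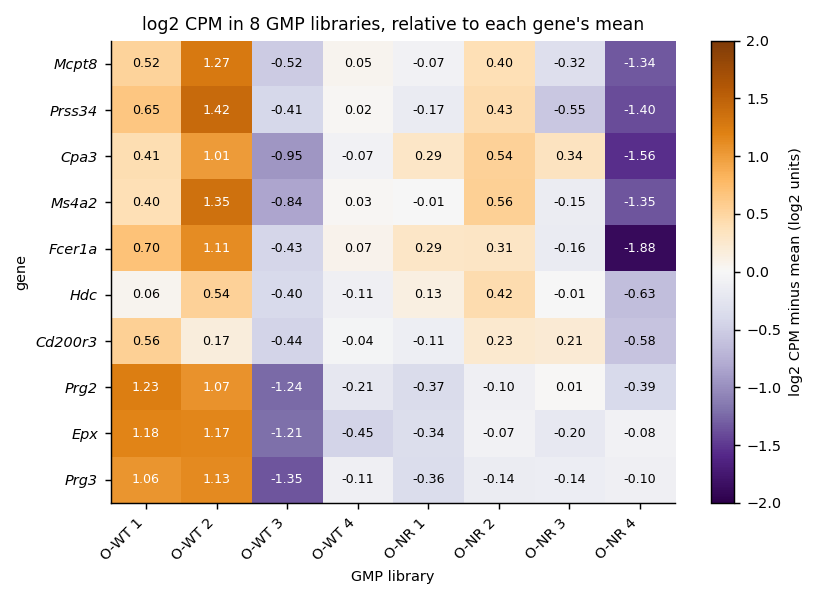
log2 CPM of each gene in the 8 GMP libraries, relative to that gene's mean over them, by colour and number. O-WT 2 is above the mean in all 10 genes and O-WT 3 below it, and O-NR 4 runs from -0.63 to -1.88 in the 6 genes of the top rows and from -0.08 to -0.39 in Prg2, Epx and Prg3.

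The basophil and mast cell genes other than Cd200r3 rose and fell together between GMP libraries. For the 15 pairs among Mcpt8, Prss34, Cpa3, Ms4a2, Fcer1a and Hdc, Pearson's r of log2 CPM was 0.85 to 0.99 and Spearman's rho 0.79 to 0.98, and 15 pairs passed for r and 13 for rho (two-sided exact permutation tests over 40320 pairings of 8 libraries, adjusted over 45 pairs). Mcpt8 and Prss34 had r = 0.99 (rho = 0.98, adjusted permutation p = 0.002 and 0.006). Within treatment, with values centred on the group mean, the 15 values of r were 0.92 to 1.00. Without the 2 libraries farthest from the median of the first gene they were 0.51 to 0.97 (median 0.87), the lowest for Prss34 with Cpa3. The eosinophil granule genes Prg2, Prg3 and Epx had r = 0.98 in each of 3 pairs (adjusted permutation p = 0.007), but rho of 0.67 to 0.79 did not pass (adjusted exact permutation p = 0.0598 to 0.125). Here O-WT 1 and 2 stood high and O-WT 3 low against the other 5 libraries. Without the 2 libraries farthest from the median r was 0.90 to 0.97, but 1 of these 3 was still among the remaining 6. For the 18 pairs that join the 2 sets, r was 0.53 to 0.74 and rho 0.21 to 0.83, 0 passed for r and 1 for rho (exact permutation tests), and without the 2 farthest libraries r was -0.09 to 0.82, a range that overlaps that within the first set. Whether r within sets differed from r between them was not tested. Cd200r3 had r = 0.67 to 0.85 with the other 9. With library totals in place of TMM, r was 0.74 to 0.99 within the first set, 0.97 to 0.98 within the second and 0.38 to 0.69 between them.

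**Figure D4:**
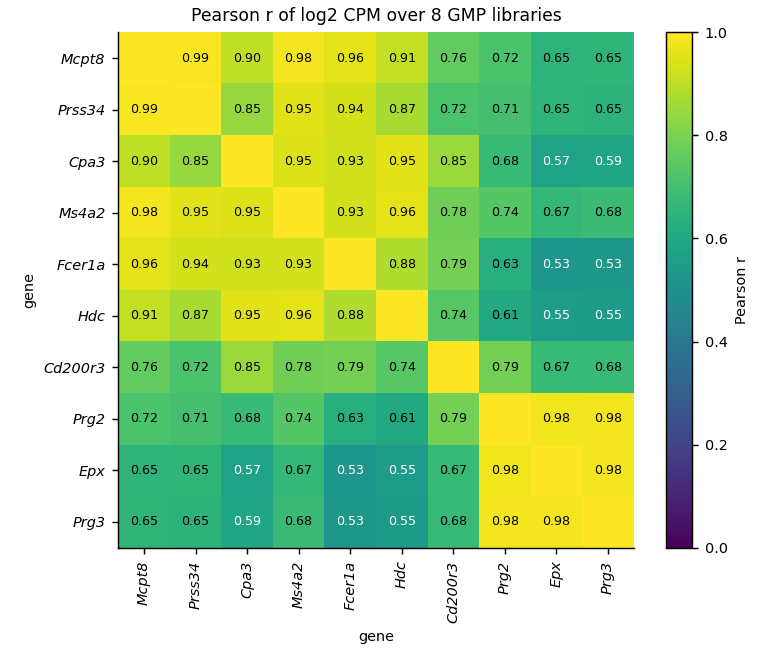
Pearson's r of log2 CPM over the 8 GMP libraries for each pair of the 10 genes, by colour (0 to 1) and number; the diagonal is 1 by construction. The 15 pairs in the upper left block are at 0.85 or above and the 3 pairs in the lower right at 0.98, while the 18 pairs between them are at 0.53 to 0.74.

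Promoters were read for the genes that moved together, 250 bases before to 50 after each start, from RefSeq (GRCm38.p6), which held 9 of the 10 (not Prg2). The motif of GATA factors was searched as AGATAA and TGATAA on both strands. One or more were present in 6 of the 9 (Prss34, Cpa3, Ms4a2, Fcer1a, Cd200r3 and Prg3) and in 18.6% of 32851 mouse promoters of the same length (AGATAA in 11.2% and TGATAA in 9.05%), and a match is a description of the letters only. The C/EBP-like pattern TTNCNNAA was present in 3 of the 9 (Fcer1a, Prg3 and Cd200r3) and in 40.7% of all promoters. The 150 bases just before the start of 4 genes with a GATA motif and of Mcpt8, which had none, are given 5′ to 3′ on the gene's strand, with the motifs, or their reverse complements TTATCT and TTATCA, in capitals.
Prss34 (chr17:25298244-25298393, plus strand): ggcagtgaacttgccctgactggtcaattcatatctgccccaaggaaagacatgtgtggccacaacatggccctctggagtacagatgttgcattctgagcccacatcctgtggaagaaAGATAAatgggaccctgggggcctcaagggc
Cpa3 (chr3:20242182-20242331, minus strand): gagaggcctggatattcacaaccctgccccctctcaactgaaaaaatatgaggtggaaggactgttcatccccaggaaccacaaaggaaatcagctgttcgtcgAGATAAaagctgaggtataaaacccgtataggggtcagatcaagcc
Ms4a2 (chr19:11623720-11623869, minus strand): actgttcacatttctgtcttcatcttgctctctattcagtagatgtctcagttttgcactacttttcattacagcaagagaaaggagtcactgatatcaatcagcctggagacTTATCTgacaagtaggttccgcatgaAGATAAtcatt
Prg3 (chr2:84988065-84988214, plus strand): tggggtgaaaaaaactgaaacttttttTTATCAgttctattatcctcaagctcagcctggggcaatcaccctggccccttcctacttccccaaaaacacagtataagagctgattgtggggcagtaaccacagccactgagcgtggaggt
Mcpt8 (chr14:56085198-56085347, minus strand): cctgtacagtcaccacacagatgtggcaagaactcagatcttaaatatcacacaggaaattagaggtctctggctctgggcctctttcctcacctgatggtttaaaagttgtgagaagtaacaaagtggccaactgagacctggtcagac

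The genes whose pattern over the 8 GMP libraries was most like that of the 10 were taken as the 5 with the highest r of log2 CPM per member, among 15085 other genes, and named where they recurred. Gata2, a transcription factor of stem cells, basophils and mast cells, was among the 5 for Mcpt8 (r = 0.99), Prss34 (0.97) and Fcer1a (0.97), and it ran from 37.4 to 238.1 CPM in GMPs. Its level went the other way between cell types, at 289.3 to 523.1 CPM in HSCs and 7.0 to 10.5 CPM in CLPs (GMP against HSC log2 fold change -2.07, SE 0.18, adjusted p = 1.8e-12). Fam129a (r = 1.00 and 0.99), Arap3 (0.99 and 0.97) and Pgap3 (0.98 and 0.98) recurred for Mcpt8 and Prss34, and Prkca for Mcpt8 and Ms4a2 (0.98 and 0.99). For the eosinophil genes these included Mylk3 (Prg2 and Prg3), Disp1 and Alox12e (Prg2 and Epx), and Ear1 and Ear6 (Prg3 and Epx), with r of 0.94 to 0.98, and the gene most like Cpa3 was Slc22a3, an organic cation transporter (r = 0.99). These values rest on 8 libraries and the same scaling, and with that many genes compared high values of r occur, so they are given as a description.

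Related gene lists differed in what they shared with the 10. Of 7 mature eosinophil genes tested, 6 were higher in GMPs than in HSCs and none was lower, among them Ear6 (log2 fold change 7.02), Ear1 (6.25), Ear2 (5.99), Siglecf (4.67) and Il5ra (2.07), with 23.6% of genes higher and 34.5% lower in all. Between GMP libraries this list did not vary as 1 set. Ear1, Ear2, Ear6 and Il5ra had r of 0.90 to 0.97 with Prg2, Prg3 and Epx. Siglecf had r of 0.53 to 0.63 with those genes and 0.83 to 0.98 with the basophil and mast cell genes. Alox15 had r of 0.38 to 0.41 and Ccr3 of -0.48 to -0.35 with Prg2, Prg3 and Epx. The 11 genes restricted to mast cells (among them the chymases Mcpt1, Mcpt2, Mcpt4 and Cma1 and the tryptases Tpsb2 and Tpsab1) summed to 10.1 to 16.4 CPM in GMPs and to at most 22.7 CPM in any library of cohort 2, and 1 of them, Mcpt2, was tested between cell types and was not called (GMP against HSC log2 fold change -0.33, adjusted p = 0.38). Of 5 other basophil genes tested, Cyp11a1 was higher in GMPs than in HSCs (1.05) and 4 were lower, including Il4 (-1.24) and Ccl4 (-2.11). Among 17 transcription factors, 8 were higher in GMPs than in HSCs and 7 lower. Cebpa (6.45), Cebpe (5.08) and Irf8 (4.86), which guide myeloid differentiation, were the 3 with the largest increases, and Zfpm1 (-3.33), Gata2 (-2.07) and Tal1 (-1.90) the 3 with the largest decreases. Gata1 differed by 0.83 (adjusted p = 0.014) from low levels, 2.00 to 9.05 CPM in HSCs and 5.44 to 15.7 in GMPs. Of 9 cytokine receptor and ligand genes, 5 were higher, including Csf2rb, the common beta chain of the interleukin 3, interleukin 5 and GM-CSF receptors (3.14), and Il1rl1, the receptor for interleukin 33 (1.80), and 2 were lower, Kit (-1.12) and Crlf2 (-0.61).

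NR did not produce a called change in any of the 10 genes in GMPs. Of the 13437 genes tested 0.99% were called (0.752% lower) at an unadjusted p below 0.01, 1 of the cutoffs in the study's methods, which also ask for a fold change above 1.5 (14 genes with both), and 0 genes passed after adjustment, with 654 at an unadjusted p below 0.05. The log2 fold changes of 9 of the 10 were below 0 (median -0.54, against -0.00 over all genes tested), but since these genes rise and fall together between libraries the 9 do not count as separate observations. Prss34 had the smallest p, with a log2 fold change of -0.76 (SE 0.31, adjusted p = 0.997 by edgeR), from 136.4, 232.3, 65.0 and 88.1 CPM in O-WT to 77.2, 117.2, 59.0 and 32.8 CPM in O-NR. The groups overlapped in this and in each of the other 9 genes, where 1.3% of all genes had groups apart. Prg2 differed by -0.60 (SE 0.34), Mcpt8 by -0.59 (SE 0.29), Epx and Prg3 by -0.55 each (SE 0.34 and 0.33), Fcer1a by -0.53 (SE 0.34), Ms4a2 by -0.42 (SE 0.34), Cd200r3 by -0.07 (SE 0.26), Cpa3 by -0.06 (SE 0.36) and Hdc by 0.04 (SE 0.17). The 95% intervals reached from -1.37 (Prss34) to 0.64 (Cpa3).

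This count depended on the libraries included and on the filter. Without O-WT 3, the library lowest in the eosinophil genes, 5 of the 10 were called lower in O-NR, where 110 of 13845 genes were called in either direction: Prss34 (-0.96, SE 0.28), Prg2 (-0.90, SE 0.21), Prg3 (-0.86, SE 0.17), Epx (-0.84, SE 0.22) and Mcpt8 (-0.79, SE 0.26). Leaving out other libraries made the same genes differ less. With each library left out in turn, Prss34 ran from -1.07 to -0.48 and Prg2 from -0.90 to -0.23. Prg3 ran from -0.86 to -0.27, Epx from -0.84 to -0.19 and Mcpt8 from -0.83 to -0.33. Without O-NR 4 the count was 0 and Cpa3 and Hdc were at 0.23 and 0.20. With a filter at 1 CPM 2 were called (Prss34 and Mcpt8), where 143 of 23584 genes were. With no filter 7 were called, where 366 of 52453 genes were, against 133 of 13437 with the filter at 3 CPM. By DESeq2, 0 of the 10 were called.

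**Figure D5:**
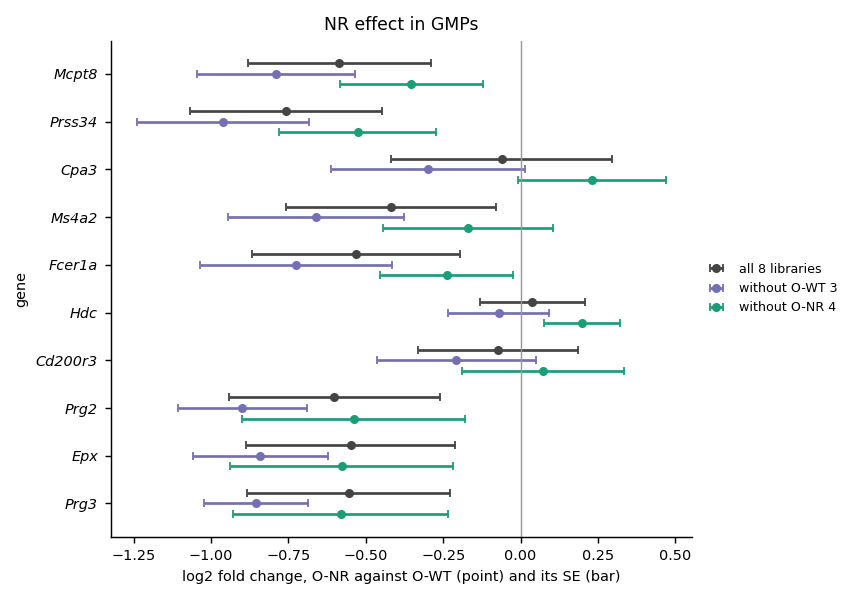
log2 fold change of O-NR against O-WT in GMPs (points) with its SE (bars) for each gene, with all 8 libraries, without O-WT 3 and without O-NR 4. Leaving out O-WT 3 moves all 10 values to the left, and leaving out O-NR 4 moves the 7 genes of the upper rows to the right and leaves Prg2, Epx and Prg3 near where they were.

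In CLPs, 7 of the 10 genes were above the filter and 0 were called, with 0.431% of 20186 genes called and 649 at an unadjusted p below 0.05. Prg2 and Epx, with their wide spread, differed by -0.38 (SE 0.58) and -0.22 (SE 0.51). Ms4a2 had the smallest p, at a log2 fold change of -1.14 (SE 0.55, adjusted p = 0.999 by edgeR). It was at 3.91, 2.89, 4.70 and 3.24 CPM in O-WT and at 2.06, 2.42, 0.117 and 2.79 CPM in O-NR, so that the groups did not overlap, as for 2.14% of all genes tested. The lowest value is 1 read. Mcpt8, Prss34 and Fcer1a were under the filter, at -0.14 (SE 0.66), -0.36 (SE 0.64) and -0.36 (SE 0.97). Without O-NR 3, Cd200r3 was called at -0.99 (SE 0.36), against -0.52 (SE 0.37) with all libraries, in a fit that called 150 of 21150 genes.

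In HSCs, 4 of the 10 genes were above the filter in this fit and 0 were called, with 0.734% of 17307 genes called. Epx differed by -0.53 (SE 0.39), Prg2 by -0.47 (SE 0.46), Cd200r3 by -0.26 (SE 0.35) and Hdc by -0.22 (SE 0.34), and the smallest adjusted p was 0.996 (edgeR). In HSCs of cohort 1, 9 of the 10 were tested, all but Fcer1a, and 0 were called for NR against O-WT (0.0358% of 30694 genes called), for O-NR-RC against O-NR (0.0293%) or for O-NR-RC against O-WT (0.0554%). The log2 fold changes of the 9 ran from -0.08 to 0.33 for NR, from -0.06 to 0.23 for withdrawal against NR and from -0.06 to 0.31 for withdrawal against O-WT, with SE of at most 0.373. The 3 comparisons of cohort 1 share libraries. Within its groups, however, the libraries of cohort 1 fell into sets: O-NR 1 and 2 and O-NR-RC 2 and 3 had HSC marker sums of 480.8 to 563.9 CPM, against 948.7 to 1583 CPM in the other 5, and the 4 highest receptor levels (1.86 to 1.94 CPM per kilobase). Without those 4 libraries, a choice made after seeing the data that leaves 1 O-NR-RC library assumed to vary like the other groups, 8 of the 10 were tested among 25195 genes. For NR 0 of the 8 were called (1.89% of all genes), for O-NR-RC against O-NR 0 (3.68%), and for O-NR-RC against O-WT 1, Cd200r3 (10.2% of all genes), at a log2 fold change of -0.78 (SE 0.26). The log2 fold changes of the 8 then ran from -0.37 to 0.16, from -0.89 to 0.61 and from -0.81 to 0.37. The difference in the NR effect between cell types was not called for any of the 10, with 0.132% (GMP minus HSC), 0.42% (CLP minus HSC) and 0.43% (GMP minus CLP) of 20470 genes called, and ran from -1.21 to 0.18, from -1.01 to 0.43 and from -0.45 to 0.59 on the log2 scale. The SE of these differences was 0.31 (Hdc) to 1.11 (Mcpt8). Mcpt8, Prss34 and Fcer1a entered these tests through their GMP libraries and were under the filter in the NR fits of HSCs and CLPs. They had at most 29 reads in an HSC library and 39 in a CLP library, so for them the absence of a call says little.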

How the data were processed

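Total RNA libraries (SMARTer Stranded kit) of sorted HSCs, CLPs and GMPs were used, 24 of cohort 2 and 9 of cohort 1. The authors trimmed reads with cutadapt, aligned them to mm10 with STAR and counted them with featureCounts (strand and multimapping settings are not given in the sources used here). The deposited counts are whole numbers for 55376 symbols per library, without normalization and with libraries not pooled. Coordinates are from Gencode M21.

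Computations used R 4.3.3, edgeR 4.0.16, DESeq2 1.42.0, and Python with scipy 1.17.1. Genes above 3 CPM in at least 4 libraries (2 in cohort 1) were kept, libraries were scaled by TMM and groups compared with edgeR's quasi-likelihood test, each cell type alone for NR, and all 24 libraries for cell types and differences in the NR effect. Calls are an adjusted p below 0.05 between cell types and an unadjusted p below 0.01 for NR. CPM and log2 CPM (prior count 2) were scaled over all libraries of a cohort, so a gene may pass the 3 CPM filter in a fit and not by these values. Correlations used two-sided exact permutation tests with Benjamini-Hochberg adjustment.

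The 10 genes and the lists were chosen with earlier results of these data known. Named genes are the 10, list genes called in a comparison or beside them, and, per member, the 5 genes of highest r in GMPs where they recur for at least 2 members, or come first for Mcpt8, Prg2 or Cpa3, except 1 that is not reported here. The fits were tested on simulated data. No 2 libraries were identical, and chi-square per degree of freedom within a group was 1.96 to 101.5. In cohort 1 it was 1.96 between O-NR 1 and 2 and 3.84 between O-NR 3 and 4, against 53.1 to 71.7 across those pairs. It was 4.02 between O-NR-RC 2 and 3, against 73.2 and 101.5 with O-NR-RC 1. Each library was counted once. That libraries are not identical does not make them separate mice, and whether any share an animal was not tested. Replicate numbers of untreated and treated mice link no animals. Alternatives were other scalings, filters, DESeq2, thinned counts, a replicate block and each library left out. Intervals cover the spread between libraries, and read floors counting error only.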

Additional observations from a re-analysis of the deposited data

Results flagged for a closer look

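In 70 groups of 4 libraries, 1 gene at a time, 2 had a library far from the others, by Dixon's 95% criterion, and chance alone marks about 1 in 20 groups. Both were in HSCs of O-NR mice in cohort 2. Ms4a2 was at 0.833 CPM in replicate 3, with the other 3 at 1.92 to 2.05 CPM. Prg2 was at 4.30 CPM in replicate 1, with the other 3 at 2.33 to 2.65 CPM. Both rest on few reads, from 10 to 35 for Ms4a2 and from 20 to 68 for Prg2 over the HSC libraries.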

How the results depend on the processing

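The number of the 10 genes called for NR was the value most open to processing. In GMPs it was 0 as given, 2 with a filter at 1 CPM, 7 with no filter and 0 to 5 with each library left out in turn (5 without O-WT 3, 1 without O-NR 2). With a replicate block it was 1 (Prss34), where 126 of 13437 genes were called. Same-numbered O-WT and O-NR libraries correlated at a mean r of 0.14 in HSCs, 0.026 in CLPs and 0.051 in GMPs. For libraries of unlike number it was -0.048, -0.008 and -0.017. These are deviations from the group means, which ties the 2 means to each other, so they cannot settle the matter. Each of the 8 mice had its own animal-like number, so replicate numbers were not taken to pair mice. Whether libraries of 1 replicate number were processed together was not tested. In CLPs the count was 0 to 1 with libraries left out. The counts of these genes called between cell types, and of correlated pairs, stayed within 1.5 times under each alternative run. Some differences near 0 changed sign. Fcer1a in CLPs against HSCs was 0.00 as given, -0.00823 at a 1 CPM filter, -0.0113 with no filter and with the replicate block, -0.16 with thinned counts, and -0.18 to 0.17 with libraries left out. With libraries left out, Prss34 there was -0.22 to 0.87. Cd200r3 in GMPs against CLPs was 0.10 at a 1 CPM filter, 0.11 with no filter and -0.36 to 0.061 with libraries left out. For NR in GMPs, Hdc was -0.0012 with no filter, -0.00812 in a fit of all 24 libraries and -0.10 to 0.20 with libraries left out, Cpa3 -0.30 to 0.23 and Cd200r3 -0.23 to 0.12. For NR in CLPs the ranges were -1.02 to 0.87 (Prg2), -0.93 to 0.80 (Epx), -0.027 to 0.59 (Cpa3) and -0.26 to 0.056 (Hdc), and for NR in HSCs -0.36 to 0.03 (Hdc). The cause was not tested. Over all genes, calls for NR in GMPs went from 133 to 14 with a fold change above 1.5 added and to 35 in a fit of all 24 libraries, and with libraries left out ran from 61 to 302. In CLPs they went from 87 to 139 (1 CPM filter), 336 (no filter), 182 (replicate block) and 335 (all 24 libraries). In HSCs of cohort 2 they went from 127 to 33 (fold change), 204 (upper quartile), 283 (no filter), 255 (replicate block) and 23 (both cohorts). In cohort 1, by other scalings, filters or DESeq2, calls for NR went from 11 to between 3 and 80, for withdrawal against NR from 9 to as many as 56, and for withdrawal against O-WT from 17 to between 3 and 100, and with libraries left out the last ran from 4 to 420. With the 5 libraries of cohort 1 that had higher HSC marker sums, 1 of the 10 genes (Cd200r3) was called for withdrawal against O-WT, and all-gene calls rose to 475, 926 and 2568. The difference in NR effect had 50 calls by DESeq2 against 27 (GMP minus HSC) and 137 against 88 (GMP minus CLP), and CLPs against HSCs had 5778 in O-WT alone against 9637. Correlations with TMM over GMP libraries alone or with library totals were chosen after seeing the data, and gave 19 and 17 of 45 pairs against 22. In HSCs, at 3 to 83 reads a gene, depth limits what can be seen.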

Other observations

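Genes that act downstream of the IgE receptor moved in both directions between cell types. Of 12 IgE receptor signalling genes tested, 5 were higher in GMPs than in HSCs and 5 lower (edgeR's quasi-likelihood test, adjusted p below 0.05, with 23.6% of all genes higher and 34.5% lower). Fcer1g, the gamma chain that the IgE receptor shares with other Fc receptors, was higher by 2.90 on the log2 scale, with Lat2 (2.12) and the kinases Syk (1.32), Btk (0.89) and Lyn (0.66). The adaptors Lat (-2.12) and Lcp2 (-1.22), the kinase Fyn (-1.46) and the phospholipases Plcg1 (-1.28) and Plcg2 (-0.60) were lower. For NR in GMPs 0 of the 12 were called (0.99% of all genes).

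Of 7 mediator genes tested, 3 were higher in GMPs than in HSCs and 3 lower, with 23.6% of all genes higher and 34.5% lower. Alox5, the enzyme that starts leukotriene synthesis, was higher by 2.58, Srgn, the granule proteoglycan, by 1.3 and Alox5ap by 0.44. Hpgds (-2.83), Slc18a2, the vesicle transporter for histamine and other monoamines (-2.59), and Ptgs1 (-2.19) were lower. Slc18a2 was at 94.2 to 166.1 CPM in HSCs and at 7.75 to 44.9 CPM in GMPs, and among GMP libraries it had r = 0.96 with Mcpt8, a description over 8 libraries. Among 16 transcription factors tested for NR in GMPs, 1 was called at an unadjusted p below 0.01, as were 0.99% of all genes. It was Id2, lower in O-NR by a log2 fold change of -0.84 (adjusted p = 0.889, edgeR).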
